A study of Homo sapiens with 6 samples.

Results

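The 10 genes described here encode the core factors that transcribe the human mitochondrial genome and keep its RNAs stable: TFAM, TFB2M, POLRMT, TEFM, LRPPRC, SLIRP, MTPAP, FASTKD2, FASTKD4 (listed under its current symbol TBRG4) and FASTKD5. They were picked by symbol and the rule used no measured value, although earlier results of these data were known when they were picked. All 10 were found among the 60668 genes of the deposited table. RNA-seq had been performed on MiaPaCa-2, an established pancreatic ductal adenocarcinoma (PDAC) line, in 3 libraries from low glucose (2.5 mM for 48 h) and 3 from control medium (25 mM). No allele, drug or transgene distinguished the groups, and the study text calls the 3 replicates per condition individual biological replicates. In the labels, the treatment field reads 2.5 mM for every sample, control ones included, and the titles tell the groups apart. Values are gene counts scaled by 1 size factor per library, called normalized counts below. The control libraries are called a, b and c and the low-glucose libraries d, e and f, in the order of the table, and a letter pairs nothing across conditions. Because these values are relative to the other genes of each library, a change in total RNA per cell is not seen in them.

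Mitochondrial DNA is transcribed from promoters in its control region into long polycistronic RNAs, which are cut into mRNAs, tRNAs and rRNAs. All the proteins that do this are encoded in the nucleus and imported. POLRMT is the RNA polymerase, TFAM packages the DNA and bends the promoters, TFB2M opens the promoter with the polymerase, and TEFM keeps the polymerase on the template. LRPPRC and SLIRP form a complex that holds mRNAs stable and open for polyadenylation, MTPAP adds their poly(A) tails, and the FASTK family of RNA-binding proteins acts on the processing and stability of particular transcripts.

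Depth was 9741183 to 10190154 reads for the control libraries and 10595408 to 13733477 for the others. Control library b stood apart from a and c: between control libraries the chi-square per gene was 4.63 to 18.9, against 1.90 to 2.89 between low-glucose libraries, and sampling noise alone would give about 1. The share of reads on mitochondrially encoded genes was 2.47% to 3.82% in control, highest in library b, and between 4.65% and 5.12% in low glucose. Among the markers of the line, KRT8 was at 39759 to 46963 in control (20549 to 21782 in low glucose) and KRT18 and VIM were likewise abundant, whereas PTPRC, which marks leukocytes, had 0 reads in all 6. The 7 markers of leukocytes, endothelium and fibroblasts together summed to between 48.1 and 58.0 in control and between 18.8 and 31.1 in low glucose. TXNIP, a transcript that follows glucose supply, fell by 1.12 on the log2 scale, with an adjusted p of 2.38e-07 by limma. Of the 3 genes tested as a check of the treatment, 2 were called higher (by up to 2.84) and TXNIP alone lower.

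Of the 10 factors, 6 fell in low glucose, 0 rose and 4 did not pass the test. The 6 were TFAM, TFB2M, SLIRP, FASTKD2, TBRG4 and FASTKD5, and the 4 were POLRMT, TEFM, LRPPRC and MTPAP. The test was limma on log2(normalized count + 1) across 21101 genes, with Benjamini-Hochberg adjustment and a threshold of 0.05 for the adjusted p. Over all 21101 genes 30.9% passed, 16.2% lower and 14.7% higher. All 10 factors had a mean above 20, and among the 13769 genes at or above that level 42.7% passed, 24.0% lower and 18.7% higher. The median change of the 10 was -0.31 on the log2 scale, against -0.02 for genes at a mean of 20 or more and 0.05 for all genes tested. In 8 of the 10 the values of the 2 conditions did not overlap, 7 with low glucose lower and 1, LRPPRC, with low glucose higher. Values did not overlap for 43.9% of all genes tested (21.8% with low glucose lower) and for 55.5% of those with a mean of 20 or more, so separate values were common among genes at this level.

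The direction of the calls depended in part on the scaling. With the deposited scaling, 3111 genes were called higher and 3417 lower (52.3% of calls lower), and with scaling by library size these counts were 3935 and 2647 (40.2% lower). Under library size, 5 of the 10 factors passed as lower and 1, LRPPRC, as higher. When the mitochondrially encoded genes were left out before that scaling, 36.1% of all calls were lower, 3 factors passed as lower and LRPPRC as higher. Over genes at a mean of 20 or more the median lay between -0.06 and 0.08 under every scaling, and 9 of the 10 factors lay below that median in each case.

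**Figure D1:**
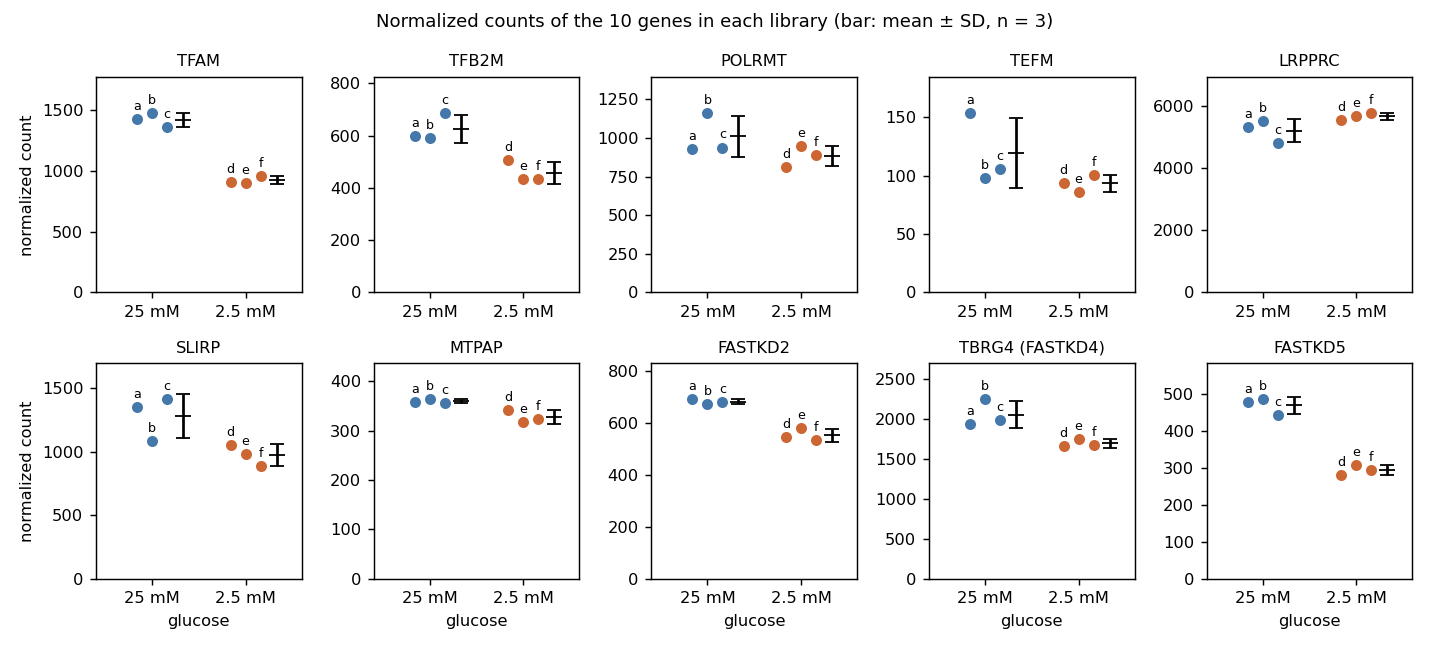
Normalized count (y axis, from 0, a separate scale for each gene) of the 10 factors in control (25 mM glucose, libraries a to c, blue) and low glucose (2.5 mM, libraries d to f, orange). Bars beside the points show the mean ± SD (n = 3), and the points of TFAM and FASTKD5 lie well apart between the conditions while those of POLRMT and TEFM overlap.

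The promoters of the factors were searched because NRF1 and GABP, the latter an ETS family factor, are the classical activators of nuclear genes for mitochondrial proteins. RefSeq promoter sequences (250 bases before to 50 after the start, GRCh38.p14) were held for 9 of the 10 genes, all but FASTKD5. The letters GCGCANGCG (NRF1 motif, both strands) occurred in 4 of the 9, in 8.05% of all 27305 promoters of the table and in 13.9% of the 12448 that belong to tested genes. The letters CCGGAAG (ETS/GABP motif, both strands) occurred in POLRMT, TEFM, SLIRP and TBRG4, and in 10.7% of all promoters and 17.8% of those of tested genes. AAGATGGCG (YY1 motif) was found 6 bases after the start of SLIRP alone among the 9, in 1.85% of all promoters and in 3.57% of those of tested genes. Of the 9, 0 held CACGTG (E-box, 7.43% of all, 9.67% of those of tested genes) or TGATGNAA (ATF4-C/EBP motif, 3.67% and 1.75%). At such shares, 0 matches in 9 promoters carry little weight. The 110 bases before the RefSeq start are shown for the 4 genes with an NRF1 match and for 2 further genes with an ETS/GABP match. They are given 5′ to 3′ on the gene's strand, with matches to either motif in capitals. POLRMT holds both motifs, and TEFM, the remaining gene with an ETS/GABP match, is not shown. Genes that fell and genes that did not pass the test are found in both groups.
TFAM (chr10:58385300-58385409, plus strand): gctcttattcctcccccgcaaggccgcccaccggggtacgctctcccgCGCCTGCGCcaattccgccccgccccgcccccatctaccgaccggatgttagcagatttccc
TFB2M (chr1:246566262-246566371, minus strand): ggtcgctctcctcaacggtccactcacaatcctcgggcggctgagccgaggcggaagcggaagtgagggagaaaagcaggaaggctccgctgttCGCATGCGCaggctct
POLRMT (chr19:633538-633647, minus strand): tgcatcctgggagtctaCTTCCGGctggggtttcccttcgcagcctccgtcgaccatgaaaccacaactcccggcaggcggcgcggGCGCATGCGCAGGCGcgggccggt
MTPAP (chr10:30349279-30349388, minus strand): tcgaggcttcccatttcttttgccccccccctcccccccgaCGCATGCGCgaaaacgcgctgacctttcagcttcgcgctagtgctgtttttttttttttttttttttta
SLIRP (chr14:77707993-77708102, plus strand): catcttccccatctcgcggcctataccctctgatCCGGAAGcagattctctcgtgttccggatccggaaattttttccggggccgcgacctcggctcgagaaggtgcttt
TBRG4 (FASTKD4) (chr7:45111698-45111807, minus strand): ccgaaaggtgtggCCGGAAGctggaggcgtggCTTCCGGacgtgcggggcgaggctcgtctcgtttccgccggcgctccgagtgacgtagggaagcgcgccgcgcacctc
The NRF1 match lay 62 bases before the start in TFAM, 16 in TFB2M and 69 in MTPAP, and POLRMT held 3 overlapping matches that began 24, 23 and 18 bases before it. TFAM and TFB2M fell, whereas POLRMT and MTPAP had adjusted p-values of 0.164 and 0.290 by limma. Of the 4 genes with an ETS/GABP match, SLIRP and TBRG4 fell and POLRMT and TEFM did not pass. The letters describe these windows and are no measure of binding.

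TFAM, the packaging and promoter factor, lies at chr10:58385345-58399220 (hg38, plus strand, 7 exons in the canonical transcript). It was read at 1423, 1473 and 1360 normalized counts in control libraries a to c and at 905, 902 and 959 in low-glucose libraries d to f. Every low-glucose value lay below every control value, and the replicates of each condition stood close together. The mean was 1419 ± 56.9 in control and 922 ± 32.2 in low glucose (SD, n = 3), 35.0% lower. TFAM fell by 0.62 on the log2 scale (SE 0.0755, 95% interval -0.78 to -0.46, limma adjusted p = 2.71e-05), and it passed the test in the same direction in all 17 alternatives. The pseudogene TFAMP1 had at most 2 reads in a library.

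TFB2M (chr1:246540561-246566261, minus strand, 8 exons), which melts the promoter for POLRMT, was at 599, 590 and 687 normalized counts in control and at 508, 433 and 433 in low glucose. The conditions did not overlap, with library c highest of all and library d highest of its group. The means were 625 ± 53.7 and 458 ± 43.2 (SD, n = 3), and TFB2M fell by 0.45 on the log2 scale (SE 0.0974, limma adjusted p = 0.00281). Without the trend of variance with expression in limma the adjusted p was 0.0521, and the other 16 alternatives kept the call. Its paralog TFB1M, which methylates the small rRNA rather than starting transcription, was at 98.7, 64.7 and 110 in control and 151, 122 and 106 in low glucose. The change of TFB1M was 0.49 on the log2 scale with an adjusted p of 0.0761, and 0.0165 without control library c.

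POLRMT (chr19:617221-633537, minus strand, 21 exons), the polymerase itself, was at 932, 1161 and 938 in control and 814, 946 and 892 in low glucose. The groups overlapped, since library e exceeded libraries a and c, and library b was the highest. The means were 1010 ± 131 and 884 ± 66.6 (SD, n = 3), and the log2 difference was -0.19 (SE 0.0976, 95% interval -0.40 to 0.02, limma adjusted p = 0.164). None of the 17 alternatives called POLRMT, and without library b its difference was -0.08. TEFM (chr17:30897336-30906238, minus strand, 4 exons), the elongation factor, was at 154, 98.1 and 106 in control and 93.3, 85.9 and 101 in low glucose. Library a stood apart from the other 5, and the groups overlapped. Its log2 difference was -0.32 with the widest interval of the 10 factors (SE 0.175, -0.70 to 0.05, limma adjusted p = 0.181). The difference was -0.13 without library a, and without library b it was -0.45 and passed (adjusted p = 0.0389). TEFM rested on 87 to 137 reads a library, and an unnamed non-coding gene on the other strand (ENSG00000275185, 33 to 49 reads) shares 542 bases of exon with it. The library kit keeps the strand, but the strand setting of the counting is not given in the sources used here, so reads of the pair cannot be told apart.

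Of LRPPRC and SLIRP, the partners of the mRNA-stabilizing complex, SLIRP fell and LRPPRC did not pass the test, and the difference between them was tested as a ratio further on. LRPPRC (chr2:43886224-43996226, minus strand, 38 exons) was at 5337, 5515 and 4806 in control and at 5566, 5680 and 5787 in low glucose. The low-glucose values were all higher, but the gap between libraries b and d was small beside the spread of the control libraries. Its log2 difference was 0.12 (SE 0.0775, 95% interval -0.04 to 0.29, limma adjusted p = 0.251). LRPPRC passed as higher in 4 of the 17 alternatives: with scaling by library size (log2 0.20, adjusted p = 0.0457), with quantile normalization (0.30, 0.00671), with mitochondrially encoded genes left out (0.23, 0.0264) and without control library b (0.16, 0.0279).

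SLIRP (chr14:77708071-77761104, plus strand, 4 exons), the small partner, was at 1347, 1084 and 1410 in control and at 1053, 980 and 883 in low glucose. Library b was lowest in control and only just above library d, so the groups were separate by a narrow margin. The means were 1281 ± 173 and 972 ± 85.2 (SD, n = 3), and SLIRP fell by 0.39 on the log2 scale (SE 0.102, limma adjusted p = 0.00936). The call was lost without control library a (adjusted p = 0.0598), without low-glucose library f (0.0718), with quantile normalization (0.107), without the variance trend (0.110) and with mitochondrially encoded genes left out (0.0524). SNW1, on the other strand, shares 118 bases of exon with SLIRP and had a mean of 1158 in control and 900 in low glucose. C14orf178, on the same strand, shares 271 bases and had 55 to 92 reads. The part of either in the value of SLIRP was not tested.

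MTPAP (chr10:30309801-30374448, minus strand, 9 exons), the poly(A) polymerase, was at 359, 363 and 356 in control and 342, 317 and 323 in low glucose. All low-glucose values were lower, with control replicates that differed by few counts. The means were 359 ± 3.59 and 327 ± 13.3 (SD, n = 3), and the log2 difference was -0.13 (SE 0.0912, 95% interval -0.33 to 0.06, limma adjusted p = 0.290), called in 0 of the 17 alternatives. A decrease of more than 0.33 on the log2 scale lay outside the interval.

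The 3 FASTK family members among the factors all fell. FASTKD5 (chr20:3146519-3159865, minus strand, 2 exons), which acts at mRNA ends that no tRNA flanks, was at 479, 486 and 444 in control and 281, 307 and 296 in low glucose. The groups lay far apart, with the lowest control value well above the highest low-glucose value. The means were 470 ± 22.4 and 295 ± 13.2 (SD, n = 3), 37.3% lower in low glucose. FASTKD5 had the largest fall of the 10, 0.67 on the log2 scale (SE 0.0922, 95% interval -0.87 to -0.47, limma adjusted p = 7.98e-05), and all 17 alternatives called it lower. UBOX5, on the same strand, shares 100 bases of exon with it and had 77 to 107 reads, and UBOX5-AS1, on the other strand, shares 330 bases and had 15 to 30 reads.

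FASTKD2 (chr2:206765357-206796189, plus strand, 12 exons), which binds the large rRNA and the ND6 mRNA, was at 689, 672 and 679 in control and 543, 578 and 532 in low glucose. Its control values were tightly grouped and stood above all of the low-glucose values. FASTKD2 fell by 0.30 on the log2 scale (SE 0.0809, limma adjusted p = 0.0103). The call was lost without low-glucose library d (0.0534) or f (0.0585), with quantile normalization, without the variance trend and with mitochondrially encoded genes left out, where the largest adjusted p was 0.0799.

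TBRG4, the FASTKD4 gene (chr7:45100100-45112047, minus strand, 11 exons), whose protein stabilizes a subset of mitochondrial mRNAs, was at 1928, 2240 and 1980 in control and 1655, 1747 and 1666 in low glucose. Library b was again the highest, and the groups did not overlap. TBRG4 fell by 0.28 on the log2 scale (SE 0.0788, limma adjusted p = 0.0155). The call was lost in 6 of the 17 alternatives, among them the omission of low-glucose library d (0.0830) or f (0.0717) and scaling by library size (0.0583). With quantile normalization the difference was -0.06 (0.594).

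**Figure D2:**
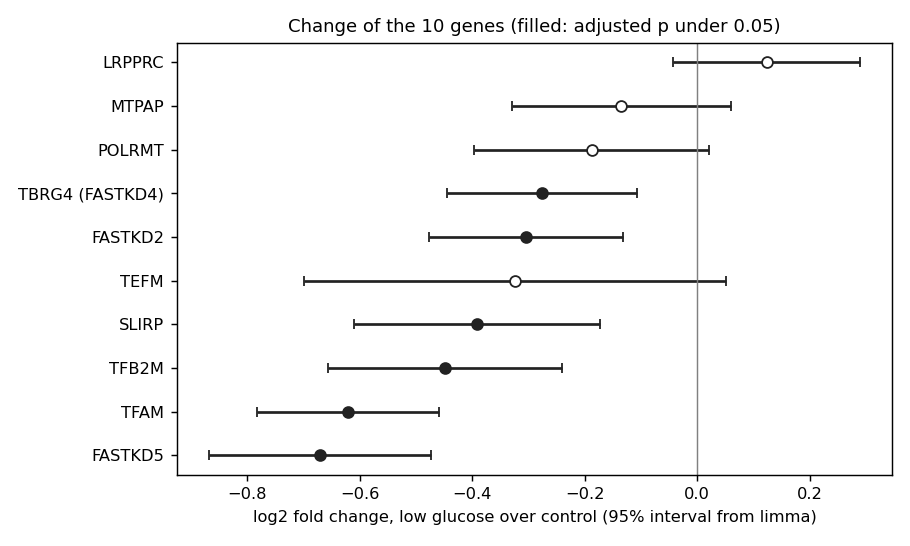
Log2 fold change of low glucose over control (x axis) of the 10 factors, ordered by size, with 95% intervals from limma (bars) and filled points for an adjusted p under 0.05. The intervals of the 6 filled factors lie below 0, and those of LRPPRC, MTPAP, POLRMT and TEFM cross it.

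Per length, as TPM, a length-corrected share of the library computed from the recovered reads and the canonical transcript, SLIRP was the most abundant of the factors in control at 617 ± 70.9, followed by TBRG4 at 167 ± 16.9 and LRPPRC at 144 ± 14.2. TFB2M came next at 63.5 ± 3.54 TPM. TFAM (51.3 ± 3.51) and POLRMT (48.8 ± 7.36) overlapped in control, while in low glucose TFAM was at 32.5 ± 1.49 TPM and POLRMT at 41.6 ± 3.05. FASTKD5 stood at 30.0 ± 2.29 TPM in control, and FASTKD2 (18.4 ± 0.564) and TEFM (16.6 ± 4.33) overlapped below it. MTPAP was the lowest at 11.7 ± 0.449 TPM. In low glucose LRPPRC, at 152 ± 4.27 TPM, lay above TBRG4 at 135 ± 3.21 (all SD, n = 3). Reads were counted over all transcripts of a gene, so a level given for 1 transcript length is approximate.

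Pairs of genes were then compared within each library, where the scaling cancels: the partners of the LRPPRC and SLIRP complex, TFAM and TEFM each with POLRMT, and TFB2M with its paralog TFB1M. The ratio of LRPPRC to SLIRP in normalized counts was 3.96, 5.09 and 3.41 in control and 5.28, 5.80 and 6.55 in low glucose, with no overlap. These counts are not corrected for length, and per length SLIRP was the higher (617 against 144 TPM in control). The log2 ratio was 0.52 higher in low glucose. The ratio of TFAM to POLRMT was 1.53, 1.27 and 1.45 in control against 1.11, 0.953 and 1.08 in low glucose, again separate, a log2 difference of -0.43. For TFB2M over TFB1M the ratios were 6.07, 9.12 and 6.23 against 3.36, 3.53 and 4.09, a log2 difference of -0.94. Each of these gave p = 0.1 in a two-sided exact permutation test, which is the smallest p that 3 against 3 libraries allow, and 0.133 after adjustment over the 4 ratios compared. The ratio of TEFM to POLRMT overlapped between the conditions (0.165, 0.0845 and 0.113 against 0.115, 0.0908 and 0.113), with a log2 difference of -0.14 (exact permutation p = 0.9), which was 0.11 without library a.

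**Figure D3:**
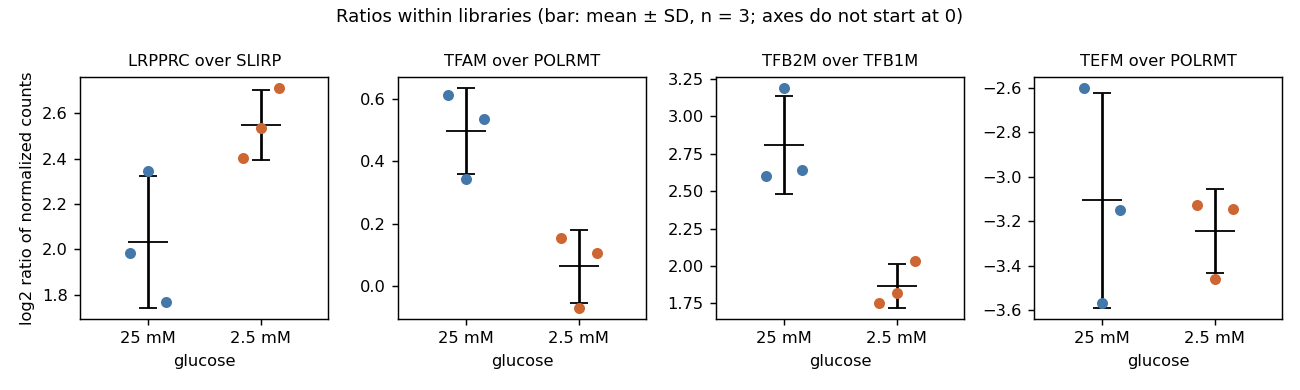
Log2 ratio of normalized counts of 4 gene pairs within each library (y axes, which do not start at 0) in control (25 mM) and low glucose (2.5 mM), with mean ± SD (n = 3). LRPPRC over SLIRP lies higher in all low-glucose libraries, TFAM over POLRMT and TFB2M over TFB1M lie lower, and TEFM over POLRMT overlaps.

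The wider machinery of mitochondrial gene expression was counted from 9 lists of 83 genes that did not include the 10 factors. Of the 82 tested, 25 fell, 7 rose and 50 did not pass, with a median of -0.15 on the log2 scale. That is 39.0% passing, 30.5% lower and 8.54% higher. Among genes at a mean of 20 or more 42.7% passed, 24.0% lower and 18.7% higher, and among all genes tested 30.9% passed. The counts of single lists given below are to be read beside these shares. Among 6 further transcription factors, 1 fell and 0 rose. That one was MTERF1, a factor that binds the DNA downstream of the rRNA genes, with a log2 change of -0.43 (limma adjusted p = 0.0423), a call kept in 7 of 17 alternatives and lost without library a, c, d or e (0.0831 to 0.201).

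Of the other 3 members of the FASTK family, 1 rose and 2 did not pass the test. FASTK, the founding member, was at 1026, 806 and 1086 in control and 1259, 1309 and 1373 in low glucose, all higher. FASTK rose by 0.44 on the log2 scale (SE 0.102, limma adjusted p = 0.00407), and 16 of 17 alternatives kept the call. FASTKD1 had a log2 difference of 0.19 (adjusted p = 0.259). FASTKD3 had one of -0.32 (0.0670), which passed without library b (0.0465) or c (0.0279).

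Of 4 genes that cut tRNAs out of the primary transcripts, 2 fell and 0 rose. ELAC2, the 3′ end nuclease, fell from 2024 ± 181 to 1274 ± 11.9 normalized counts (log2 -0.66, limma adjusted p = 2.45e-05). TRMT10C, a subunit of mitochondrial RNase P, fell from 516 ± 47.2 to 325 ± 18.0 (log2 -0.66, adjusted p = 0.000146). Both calls held in all 17 alternatives.

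Of 7 genes for RNA decay and RNA granules, 2 rose and 2 fell (1 without library e). LACTB2, an RNase, rose from 50.8 ± 15.3 to 101 ± 19.2 normalized counts (log2 1.01, limma adjusted p = 0.00353), and PDE12, which removes poly(A) tails, fell from 492 ± 8.05 to 357 ± 30.9 (log2 -0.47, adjusted p = 0.00159). The degradosome subunits did not pass: PNPT1, the nuclease, had a log2 difference of -0.16 (adjusted p = 0.135) and SUPV3L1, the helicase, one of 0.22 (0.0502, and 0.0127 without library c).

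Among 14 genes for rRNA modification and ribosome assembly, 6 fell and 1 rose, with a median of -0.18. MRM3, which methylates the large rRNA, fell by 0.76 on the log2 scale (limma adjusted p = 5.91e-05, called in 17 of 17 alternatives). RPUSD3, a pseudouridine synthase family member, rose by 0.32 (0.0371), and this call was kept in 8 of 17 alternatives and lost without library a, c, d, e or f (0.0677 to 0.170).

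Of 12 regulators upstream of these genes that could be tested, 4 fell and 1 rose, and 2 fell without library a, d or e, while 2 rose without library b or c. NRF1 (nuclear respiratory factor 1) was at 280, 310 and 268 in control and 197, 211 and 167 in low glucose, and it fell by 0.58 on the log2 scale (SE 0.118, limma adjusted p = 0.00180). The groups were separate, and all 17 alternatives kept the call. ESRRA, an orphan receptor that works with the PGC-1 coactivators, rose from 787 ± 34.8 to 1121 ± 36.9 (log2 0.51, adjusted p = 0.000177). GABPA, the DNA-binding subunit of GABP, had a log2 difference of -0.24 (adjusted p = 0.0753) with overlapping groups. Without control library b the difference of GABPA was -0.34 and passed (limma adjusted p = 0.000362). LONP1, the matrix protease that degrades unbound TFAM, had one of 0.06 (0.630). PPARGC1A, which encodes PGC-1α, had 0 reads in each of the 6 libraries.

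**Figure D4:**
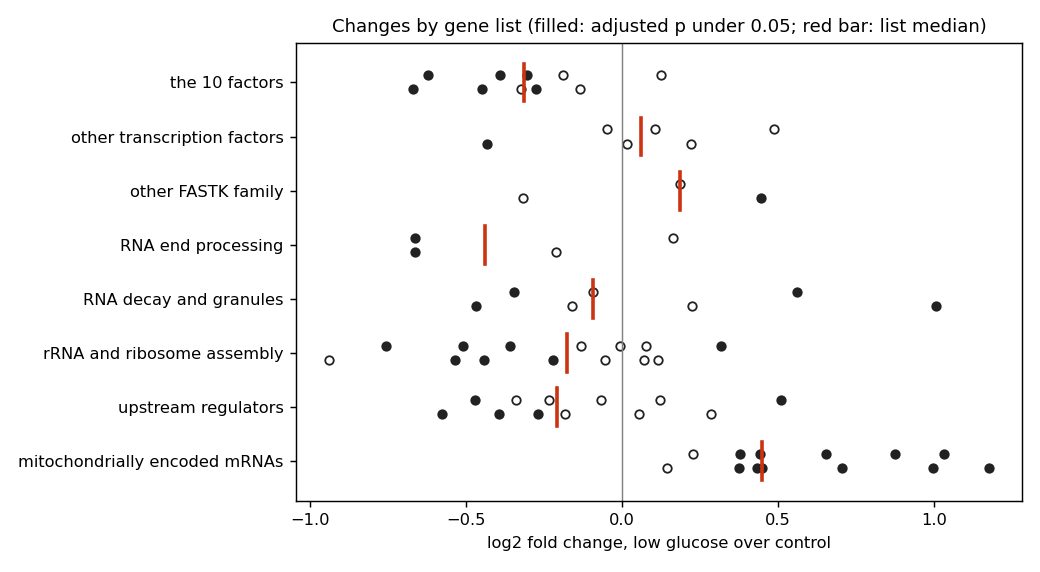
Log2 fold change of low glucose over control (x axis) for each tested gene, filled where the adjusted p was under 0.05, with a red bar at the median of each list. Rows hold the 10 factors, the mitochondrially encoded mRNAs and other lists of the text. The lists for mitochondrial DNA maintenance, tRNA modification and translation are not drawn. The 10 factors centre at -0.31 and the 13 mitochondrially encoded mRNAs at 0.45.

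Of the 13 mitochondrially encoded mRNAs, on which the factors act, 11 rose and 0 fell (median log2 0.45, range 0.14 to 1.18), and of the 2 rRNAs 0 passed. Among genes at a mean of 20 or more 18.7% passed as higher, and among all genes tested 14.7%. The count of 11 was 6 without library a, d or e, 7 without f, 8 without c and 13 without b, and it was 4 without the variance trend and 6 with TPM, with 0 lower in each. Of the rRNAs, MT-RNR2 passed as higher without library b (log2 0.41, limma adjusted p = 7.59e-05) and MT-RNR1 as lower without library c (-0.39, 0.0135). MT-ND4, a subunit of complex I, rose by 1.18 (limma adjusted p = 2.18e-05). The values of the 2 conditions did not overlap for 7 of the 13 mRNAs, against 55.5% of genes at a mean of 20 or more. Summed over the 13, they came to 221037, 306868 and 201668 normalized counts in control and 386032, 423603 and 407759 in low glucose. Set over TFAM of the same library, which itself fell, the sum was 155, 208 and 148 against 426, 470 and 425. Set over LRPPRC, which did not pass the test, it was 41.4, 55.6 and 42.0 against 69.4, 74.6 and 70.5. Neither was among the 4 ratios tested. Whether the libraries were made by poly(A) selection or by rRNA removal is not given in the sources used here, and its part in these levels was not tested.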

How the data were processed

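Strand-specific RNA-seq libraries of MiaPaCa-2 cells had been mapped by the authors to hg38 with STAR 2.7.0e. RSEM stands in the study's software list with no step assigned to it. Whether it made these counts, and the strand setting and annotation of the counting, are not given in the sources used here. What was deposited is a signal on the count scale: gene counts that the authors divided by 1 size factor per library. In every library 100% of values were whole multiples of 1 read (tolerance 0.01 reads), so reads were recovered. Of 60668 identifiers, 60295 (99.4%) matched a Gencode 44 symbol, and 28454 genes had a read.

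Only the columns of low glucose replicates 1 and 2 are named in the labels, and the remaining 4 were assigned by the 2 runs of 3 that the column names make. The 3 libraries per condition limit an exact permutation test to p = 0.1 or more.

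The design allowed for raw counts or normalized values, and the latter applied. Genes with a mean of at least 1 (21101) were tested on log2(value + 1) with limma 3.58.1 (R 4.3.3; lmFit, eBayes with trend, two-sided, Benjamini-Hochberg). Alternatives were other scalings (TMM, library size, quantiles), no filter, a mean of at least 5, a pseudocount of 0.1, no variance trend, edgeR 4.0.16 and DESeq2 1.42.0 on recovered reads, mitochondrially encoded genes left out, TPM, a log2 change of 0.5 or more in size, and omission of each library. edgeR used the quasi-likelihood test on 15322 genes, of which it called 3200 higher and 3354 lower. The tests were first run on simulated counts with the same spread in both groups, unlike these libraries. That run does not bear on the calls reported here.

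The 10 factors and all lists were chosen with earlier results of these data known. Beside the 10, the genes named were the called gene of each list with the largest rise and the largest fall (mean of at least 20), with TFB1M, FASTK, FASTKD1, FASTKD3, PNPT1, SUPV3L1, TRMT10C, LONP1, NRF1, GABPA and PPARGC1A. Genes overlapping on either strand were looked up in Gencode 44 for the 10 factors only. Promoter sequences are from RefSeq, GRCh38.p14. Other tools were Python 3.11.15, pandas 2.3.3, scipy 1.17.1 and matplotlib 3.10.9.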

Additional observations from a re-analysis of the deposited data

How the results depend on the processing

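All 10 factors kept their sign in all 17 alternatives that gave a fold change. Of these 170 values, 148 stayed on the same side of the threshold, 17 lost a call and 5 gained one. The number of factors past the threshold, 6, was 2 without the variance trend in limma (TFAM and FASTKD5) and 2 when a log2 change of at least 0.5 was also asked for. It ranged from 3 (without low-glucose library f) to 8 (without control library b, where TEFM passed as lower and LRPPRC as higher) when a library was left out. For the wider lists, where 32 genes passed, the count was 16 without the variance trend and 12 with the fold criterion, and 24 to 39 with a library left out. The cause of these changes was not tested. Of the ratios, the difference for TEFM over POLRMT ranged from -0.37 to 0.11 with a library left out and changed sign without control library a, the library in which TEFM was highest. The number of factors whose groups did not overlap was 6 to 8 over the scalings. No paired analysis was possible because the columns of 4 of the 6 libraries carry no replicate number. TEFM had the fewest reads of the 10 and the widest interval.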

Other observations

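Genes that copy and maintain mitochondrial DNA also had a negative median. Of 12 tested, 5 fell and 1 rose, with a median of -0.29 on the log2 scale. DNA2, a nuclease and helicase that also works in the nucleus, fell from 296 ± 24.0 to 185 ± 25.3 normalized counts (SD, n = 3; log2 -0.68, limma adjusted p = 0.000659), and POLG2, the accessory subunit of the mitochondrial DNA polymerase, rose from 178 ± 42.9 to 262 ± 9.19 (log2 0.59, adjusted p = 0.00788). All 3 low-glucose values of POLG2 lay above the control values, and values did not overlap for 55.5% of genes at a mean of 20 or more.

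Of 12 genes for modification of mitochondrial tRNAs, 2 fell and 0 rose (16.7% passing, against 42.7% of genes at a mean of 20 or more). TRMU, which thiolates tRNAs, fell from 598 ± 15.3 to 408 ± 7.82 normalized counts (log2 -0.55, limma adjusted p = 0.000176). Of 12 factors for mitochondrial translation, 3 fell and 1 rose (33.3% passing), with a median of -0.05. TACO1, a translational activator of the COX1 mRNA, fell from 525 ± 30.1 to 391 ± 4.67 (log2 -0.42, adjusted p = 0.00196), and MTRFR, a release factor family member, rose from 296 ± 18.0 to 367 ± 9.35 (log2 0.31, adjusted p = 0.0224), a call lost without library a, d, e or f (0.0658 to 0.0993).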
